A study of Homo sapiens with 4 samples.

Results

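CEACAM1, CEACAM3 and CEACAM8 are 3 genes of the carcinoembryonic antigen-related cell adhesion molecule (CEACAM) family. They were chosen by name from the deposited expression table, which held 1648 genes, and each matched 1 row. Expression had been measured by poly(A) RNA-seq in HL-60 cells. This line was grown from the peripheral blood of a patient diagnosed at the time with acute promyelocytic leukemia. The ATRA group (2 libraries) received 1 µM all-trans retinoic acid, the active form of vitamin A and an inducer of myeloid differentiation, for 4 days. The control group (2 libraries) received the same volume of the solvent ethanol. In both groups the medium was replaced and the agent given again at day 2. HL-60 is a single leukemia line and carries its own mutations. The labels do not say whether libraries of a group came from separate cultures, so the spread and the p-values below describe only these 4 libraries.

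CEACAM proteins belong to the immunoglobulin superfamily and sit at the cell surface, where the outermost variable-like domain of some members binds other CEACAM proteins or adhesins of several bacteria. CEACAM1 (CD66a) crosses the membrane and carries inhibitory tyrosine motifs that recruit the phosphatases SHP-1 and SHP-2. CEACAM3 (CD66d) crosses the membrane too, but carries an activating tyrosine motif that Src-family kinases phosphorylate, and it takes up bacteria in granulocytes. CEACAM8 (CD66b) has no cytoplasmic tail, is held by a glycosylphosphatidylinositol (GPI) anchor, and is a common surface marker of granulocytes stored in part in their specific granules.

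In genome build GRCh37 all 3 genes lie on chromosome 19. CEACAM1 (ENSG00000079385.23) spans chr19:43011456-43065386 on the minus strand, and its canonical GENCODE transcript has 9 exons and 3491 bases. CEACAM8 (ENSG00000124469.12) follows on the same strand at chr19:43084395-43099207, with 6 exons and 2297 bases. CEACAM3 (ENSG00000170956.17) lies on the plus strand at chr19:42300519-42315592, with 8 exons and 1166 bases. The variable-like domain is encoded mostly by exon 2, where CEACAM1 and CEACAM3 were identical at 95% of 360 aligned bases, CEACAM1 and CEACAM8 at 86.4%, and CEACAM3 and CEACAM8 at 84.2%. A stretch of 60 bases of exon 2, read from GRCh37 in the direction of transcription, is shown because the genes differ at only a few of its bases. Capitals mark the 6 positions at which the 3 genes are not all the same.
CEACAM1 (chr19:43031291-43031350, minus strand): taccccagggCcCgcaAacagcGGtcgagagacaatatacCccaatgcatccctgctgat
CEACAM3 (chr19:42301723-42301782, plus strand): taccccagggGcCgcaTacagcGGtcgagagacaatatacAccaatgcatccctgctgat
CEACAM8 (chr19:43097791-43097850, minus strand): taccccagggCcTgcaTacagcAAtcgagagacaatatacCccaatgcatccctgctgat
In this stretch CEACAM3 differed from CEACAM1 at 3 positions and CEACAM8 differed from CEACAM1 at 4.

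The table held the authors' group means with a fault: every digit 0 had been written as 1. The means were restored to whole reads in each library, called libraries a and b of a group, and a normalised read count is such a count divided by the size factor of its library. The reads of a gene are those that the authors' quantification program, RSEM, assigned to it, which is an estimate where genes share sequence. The size factors were between 0.895 and 1.10. The 1648 listed genes held between 3288055 and 5576516 reads per library, and the reads of other genes are unknown.

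CEACAM1 was close to silent in the control cells and among the listed genes with the most normalised reads after ATRA. Its normalised read count was 16136 and 14937 in the ATRA libraries and 14.6 and 13.4 in the control libraries, from 17735, 14977, 15 and 12 reads. Both ATRA libraries lay far above both control libraries, the lower ATRA value being 1024 times the higher control value. The mean was 15536 ± 848 (SD, n = 2) with ATRA and 14.0 ± 0.832 (SD, n = 2) in the controls. The ratio was 1110, or 10.12 on the log2 scale, with a 95% counting interval from 763 to 1685. Counting intervals here are exact Clopper-Pearson intervals, cover counting error only, and treat PCR copies as independent molecules. They do not cover error in the assignment of reads between genes that share sequence. Only 53 of the 1648 listed genes had a higher ATRA mean than CEACAM1, in reads not divided by transcript length. The libraries within a group lay 1.08 times apart for ATRA and 1.09 times apart for the controls.

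CEACAM3 had a single read in the 2 control libraries together and rose with ATRA. Its normalised read count was 191 and 159 in the ATRA libraries and 0 and 1.12 in the control libraries, from 210, 159, 0 and 1 reads. The groups did not overlap, and the ATRA libraries differed from each other by no more than counting error (95% counting interval of the ratio of library a to b from 0.976 to 1.49). The mean was 175 ± 23.0 (SD, n = 2) with ATRA and 0.559 ± 0.790 (SD, n = 2) in the controls. The ratio of the means was 313, or 8.29 on the log2 scale, but with a single control read its counting interval ran from 55.8 to 12392. The control libraries decide this value. Without control library a the log2 ratio of CEACAM3 was 7.29, and without control library b, when no control read is left, it was at least 5.91 (against a floor of 3 reads in the remaining control library).

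CEACAM8 also had almost no control reads, and its ATRA libraries were the least alike of the family. Its normalised read count was 313 and 121 in the ATRA libraries and 1.94 and 1.12 in the control libraries, from 344, 121, 2 and 1 reads. Library a of the ATRA group was 2.59 times as high as library b, beyond counting error (interval from 2.10 to 3.22), yet library b was still 62.0 times the higher control. The mean was 217 ± 136 (SD, n = 2) with ATRA and 1.53 ± 0.585 (SD, n = 2) in the controls, a ratio of 142 (counting interval from 48.2 to 689) and a log2 ratio of 7.15. Without ATRA library a the log2 ratio of CEACAM8 fell to 6.30. A gap between ATRA libraries at least as wide as that of CEACAM8 was found in 1.88% of the listed genes, against 74.3% for CEACAM1 and 43.9% for CEACAM3. Which replicate number of the labels each library carries is not recorded in the table.

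**Figure D1:**
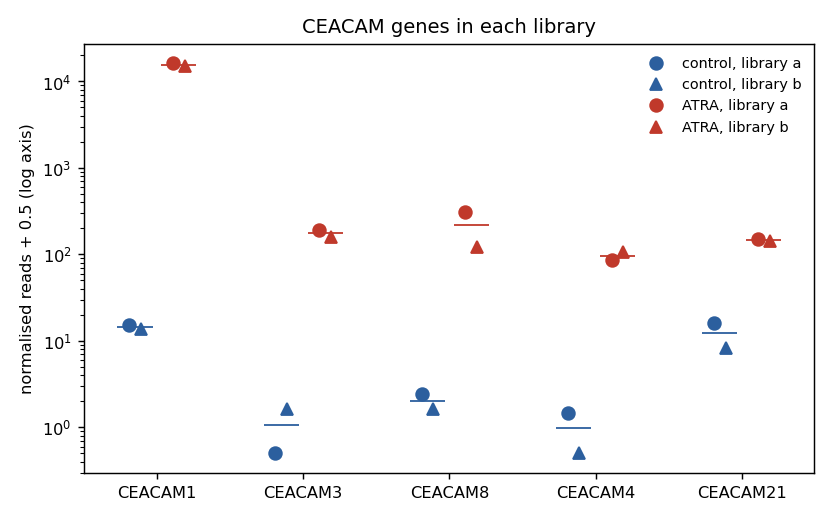
Normalised reads + 0.5 (log axis) of the 5 CEACAM genes in the table, for each control library (blue) and ATRA library (red), circles for library a, triangles for library b and bars for the group mean. The ATRA points lie above the control points for every gene, and the ATRA points of CEACAM8, at 313 and 121 normalised reads, are the farthest apart.

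All 3 genes passed the limit by which the authors' table had been drawn up, an adjusted p under 0.01 in their own comparison. Of the 12265 genes that the authors had tested, 13.4% passed it, made up of 8.28% that were higher with ATRA and 5.13% that were lower. Groups that do not overlap are no distinction here, since this held for 100.0% of the 1648 listed genes. An exact two-sided permutation test over the 4 libraries gave p = 0.333 for each of the 3 genes, which is the smallest value that 2 libraries against 2 allow, so that test could not pass 0.05. In size of change the 3 genes ranked high among the listed genes. A ratio at least as large as that of CEACAM1 was found in 8 listed genes (0.485%). The counts were 25 (1.52%) for CEACAM3 and 50 (3.03%) for CEACAM8, each including the gene itself. Listed genes with no control read entered at a lower bound, against a floor of 3 control reads over the group. CEACAM3, with 1 control read, had no such floor, so these counts may be too low. CLEC10A, with an ATRA mean of 345 and no control read, entered at 220 and so ranked below CEACAM3. The median log2 ratio was 1.23 over all listed genes and 1.87 over those that were higher. Where the control mean rests on few reads the ratio is imprecise, and 55 of the higher genes, CEACAM3 and CEACAM8 included, had 3 or fewer control reads.

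**Figure D2:**
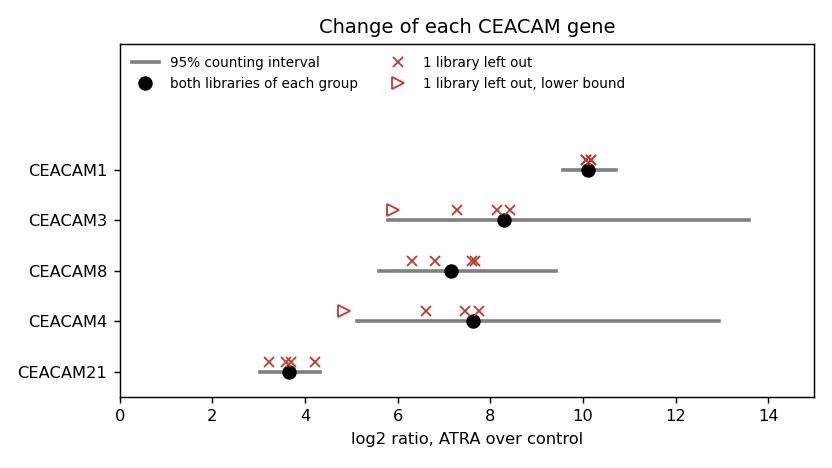
Log2 ratio of ATRA to control for the 5 CEACAM genes. Black points use both libraries of each group, grey lines are 95% counting intervals, red crosses leave out 1 library, and open triangles are lower bounds where no control read was left. CEACAM1 at 10.12 has a narrow interval, whereas those of CEACAM3 and CEACAM4, with 1 control read each, are wide.

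The table listed 2 further genes of the family, CEACAM4 and CEACAM21. CEACAM4, a granulocyte protein with an activating tyrosine motif, had 85.5 and 106 normalised reads with ATRA and 0.972 and 0 in the controls. Its ratio was 197 (counting interval from 34.9 to 7806), or 7.62 on the log2 scale. This too rests on 1 control read: leaving out control library b lowered the log2 ratio of CEACAM4 to 6.62, and leaving out control library a left a bound of at least 4.83. CEACAM21 had 152 and 141 normalised reads with ATRA and 15.6 and 7.82 in the controls, a ratio of 12.5 (from 8.19 to 20.0). CEACAM21 was thus the listed family gene with the smallest ratio, and its interval lay below those of the other 4. In all, 5 of 12 family genes (41.7%) were listed under the limit and all 5 were higher, beside 13.4% and 8.28% of all tested genes. Of these, 4 exceeded 16-fold, as did 11.3% of all listed genes. CEACAM1, CEACAM3 and CEACAM8 were chosen from the listed genes, with earlier results of these data known. How many of the 12 the authors had tested is unknown too, so the shares are not strictly comparable. CEACAM5, CEACAM6, CEACAM7, CEACAM16, CEACAM18, CEACAM19 and CEACAM20 were not in the table, and neither were 10 of 10 pregnancy-specific glycoprotein (PSG) genes, the related family of the placenta. A gene outside the table was either untested or over the limit, and its level was not analysed here.

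Levels of different genes were compared per kilobase of canonical transcript. After ATRA, CEACAM1 stood apart at 4622 and 4279 normalised reads per kb. CEACAM3 followed at 164 and 136, CEACAM21 at 111 and 102 and CEACAM4 at 73.7 and 91.1, with no overlap between neighbours in this order. CEACAM8, at 136 and 52.5 normalised reads per kb, lay below CEACAM3 within each ATRA library. It had no fixed place beside CEACAM21 and CEACAM4, since its values spanned theirs. As set out below, the CEACAM3 and CEACAM8 values may hold reads of CEACAM1, both in this order and in the shares and read ratios that follow. Their part was not tested. In the controls the order was another one. CEACAM21 led with 11.3 and 5.70 normalised reads per kb, ahead of CEACAM1 with 4.18 and 3.84, and CEACAM3, CEACAM8 and CEACAM4 all lay below 1, where single reads decide the order.

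The makeup of the CEACAM reads shifted accordingly. CEACAM1 accounted for 95.6% of 18550 CEACAM reads in ATRA library a and 96.6% of 15504 in library b. In the controls it accounted for 44.1% of 34 reads in library a (Wilson 95% interval, counting error only, from 28.9% to 60.5%) and 57.1% of 21 in library b (from 36.5% to 75.5%). Both ATRA shares lay above both control shares, by more than the distance between libraries of a group. CEACAM21 made up 47.1% and 33.3% of the CEACAM reads in control libraries a and b, but 0.900% and 0.909% in the ATRA libraries. Within single libraries, the reads of CEACAM1 were 106 times those of CEACAM21 in both ATRA libraries but 0.938 and 1.71 times in the controls. The ratio of CEACAM1 to CEACAM3 reads was 84.5 and 94.2 in ATRA libraries a and b, close to each other, whereas that of CEACAM1 to CEACAM8 was 51.6 and 124. In reads not divided by transcript length, CEACAM8 exceeded CEACAM3 in ATRA library a (1.64 reads for each CEACAM3 read). It fell short of CEACAM3 in library b (0.761). Per kb of its longer transcript, CEACAM8 was below CEACAM3 in both ATRA libraries.

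**Figure D3:**
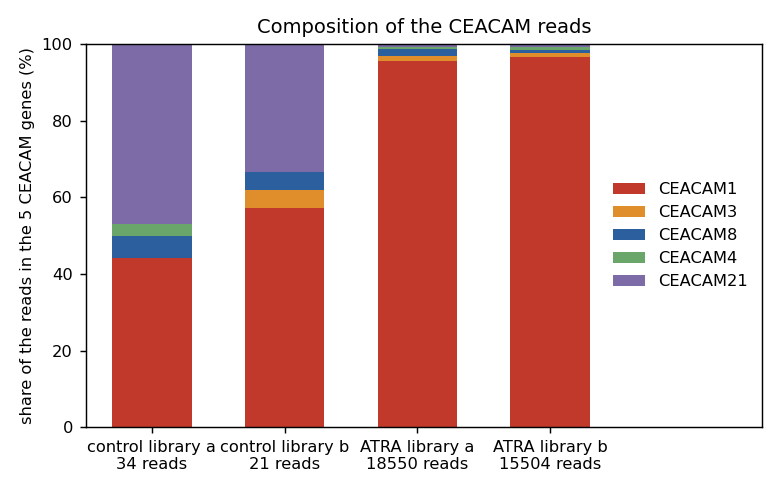
Share of each gene in the reads of the 5 listed CEACAM genes, in % of the reads of each library, with the number of reads under each bar. CEACAM1 takes nearly the whole bar in both ATRA libraries, while CEACAM21 (purple) takes a large part of both control bars, which hold few reads.

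The likeness in sequence between the genes was measured along whole transcripts. Of the windows of 50 bases in the canonical CEACAM1 transcript, 4.18% were found unchanged in a GENCODE transcript of some other gene, compared with 6.36% for CEACAM3 and 4.14% for CEACAM8. Even coverage of CEACAM1 by its 32712 ATRA reads would place 483 of them in windows shared with the canonical CEACAM3 transcript at a read length of 36 bases, 238 at 50 bases and 0 at 75 and 100 bases, against 369 reads assigned to CEACAM3. Counting windows shared with any annotated CEACAM3 transcript, these figures were 1193, 760, 412 and 174. For CEACAM8 they were 511 at 36 bases, above the 465 reads assigned to it, and 247, 9.57 and 0 at 50, 75 and 100 bases. The read length and the handling of such reads beyond the use of RSEM are not given in the sources used here, and their part in the CEACAM3 and CEACAM8 values was not tested. CEACAM5 and CEACAM6, whose exon 2 was identical to that of CEACAM1 at 94.4% and 93.6% of bases, were not in the table. CEACAM4 and CEACAM21 shared no window of 50 bases with CEACAM1, CEACAM3 or CEACAM8.

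The antisense transcript LIPE-AS1 (chr19:42901266-43156519, plus strand) runs across both CEACAM1 and CEACAM8 and was listed as well. It had 111 and 149 normalised reads with ATRA and 5.83 and 6.70 in the controls, a ratio of 20.7. Its exons shared 131 of the 3491 bases of the CEACAM1 transcript and 0 bases of the CEACAM8 transcript. Whether counting used strand is not stated, so reads of CEACAM1 and LIPE-AS1 in the shared bases cannot be told apart. CEACAM1 had 145 and 101 times the reads of LIPE-AS1 in the ATRA libraries, but 2.5 and 2 times in the controls. The part of such reads in the values of either gene was not tested. Of 71 protein-coding genes outside the family within 250 kb of any CEACAM gene, 8 were listed (11.3%), beside 13.4% of all tested genes. How many of the 71 the authors had tested is unknown, so the shares are not strictly comparable. The transforming growth factor gene TGFB1 (1.98-fold), B3GNT8 (10.5-fold), ARHGEF1 (2.21-fold), BCL3 (4.53-fold) and SIGLEC10 (3.12-fold) were higher with ATRA, and NKG7, SIGLEC8 and SIGLEC6 were lower. None of them had CEACAM1 or CEACAM8 as its nearest family gene. The nearest was CEACAM3 for ARHGEF1 and CEACAM21 for TGFB1 and B3GNT8. For BCL3 it was CEACAM16, and for NKG7 and the SIGLEC genes CEACAM18, neither of which was listed.

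**Figure D4:**
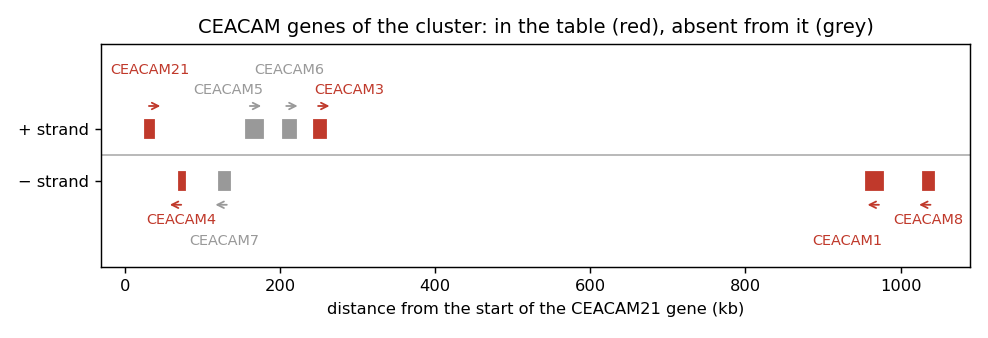
Canonical transcripts of the 8 CEACAM genes of the main cluster, drawn to scale by distance (kb) from the start of CEACAM21, with arrows for the direction of transcription. Genes in the table, drawn in red, occur at both ends of the cluster and on both strands, whereas CEACAM5, CEACAM6 and CEACAM7 (grey) were not listed.

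The sequences before the start sites are shown because the 3 genes were higher together. They are the 250 bases upstream of the RefSeq start, each of which matched GRCh37 exactly at 1 place on chromosome 19. Capitals mark matches, on either strand, to 7 short words searched in all 35116 RefSeq promoters.
CEACAM1 (chr19:43032634-43032883, minus strand): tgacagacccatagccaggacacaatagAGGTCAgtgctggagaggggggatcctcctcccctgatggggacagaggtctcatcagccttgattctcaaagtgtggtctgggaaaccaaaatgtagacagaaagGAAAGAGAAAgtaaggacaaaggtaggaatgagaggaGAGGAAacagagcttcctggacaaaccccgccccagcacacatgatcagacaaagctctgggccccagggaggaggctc
CEACAM3 (chr19:42300269-42300518, plus strand): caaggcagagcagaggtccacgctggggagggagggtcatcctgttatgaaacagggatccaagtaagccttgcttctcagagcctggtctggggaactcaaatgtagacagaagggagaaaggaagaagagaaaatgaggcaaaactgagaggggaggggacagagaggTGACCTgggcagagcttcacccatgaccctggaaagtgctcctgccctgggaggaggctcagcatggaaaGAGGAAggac
CEACAM8 (chr19:43099077-43099326, minus strand): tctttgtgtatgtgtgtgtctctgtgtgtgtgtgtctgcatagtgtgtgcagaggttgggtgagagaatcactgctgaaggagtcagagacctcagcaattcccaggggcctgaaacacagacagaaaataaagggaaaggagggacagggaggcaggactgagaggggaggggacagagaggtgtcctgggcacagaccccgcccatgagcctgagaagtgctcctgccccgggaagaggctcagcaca
The word GAGGAA, the core of sites for the myeloid factor PU.1, occurred in 23.6% of all promoters. The half-site of nuclear receptors, AGGTCA, occurred in 12.1% and its variant AGTTCA in 8.80%. The interferon-stimulated response element, searched as a pair of GAAA blocks with 2 free bases between them, occurred in 3.02%. A word of the C/EBP factors, TTGCNNAA, occurred in 9.05% of all promoters. For the factors of the GATA family AGATAA was searched, with 9.17%, and for the TATA box TATAAA, with 10.7%. CEACAM1 held AGGTCA at -222, the response element at -116 and GAGGAA at -79, counted from the start to the first base of the match. CEACAM3 held AGGTCA on the opposite strand at -80 and GAGGAA at -10. Among the other listed family genes, AGGTCA also occurred before CEACAM4 and CEACAM21, and GAGGAA before CEACAM21. The CEACAM4 promoter sequence had 0 exact matches on GRCh37 chromosome 19. Matches were not looked up for the unlisted family genes, so the words cannot be said to set the listed genes apart. The CEACAM8 window held no match to any of the 7 words, and no 2 matches overlapped in any of the 3 windows. Over 224 aligned bases the CEACAM1 and CEACAM3 windows were 71.0% identical, and CEACAM8 was identical to CEACAM1 at 69.5% and to CEACAM3 at 66.2%. The CEACAM3 window was more like those of CEACAM21 (78.7%) and of CEACAM6 (82.1%), which was not listed. These matches are a description of letters, and binding was not measured here.

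The proteins known to act behind the tyrosine motifs of CEACAM1 and CEACAM3 were a list of 12 genes, of which 5 were listed, all higher with ATRA (41.7%, beside 8.28% of all tested genes). Their median log2 ratio was 1.33, beside 1.87 for all higher genes. The list was written by hand with earlier results of these data known. Which of its genes the authors had tested is unknown, so its share and that of all tested genes are not strictly comparable. FGR, a Src-family kinase of myeloid cells, rose from 5.83 and 8.94 normalised reads in the controls to 24172 and 22821, a ratio of 3181. The kinase LYN (4.13-fold) and the phosphatase SHP-1 (PTPN6, 2.51-fold) rose less. VAV1, an exchange factor for Rac, was at 1.98-fold, and the small GTPase RAC2 at 1.95-fold. PTPN11 (SHP-2), INPP5D, SRC, SYK, RAC1, NCK2 and PIK3R1 were not in the table.

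**Figure D5:**
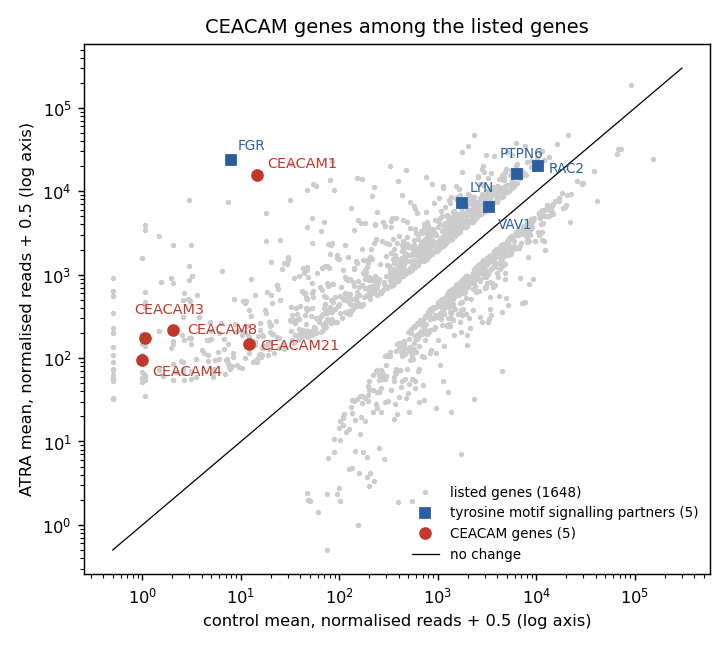
Control mean against ATRA mean, both as normalised reads + 0.5 on log axes, for the 1648 listed genes (grey), the 5 CEACAM genes (red) and the 5 listed signalling partners (blue). CEACAM1 and FGR lie together at the upper left, at 15536 and 23497 normalised reads with ATRA, and CEACAM3, CEACAM4 and CEACAM8 lie among listed genes with almost no control reads.

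Among 5 surface partners, 2 were listed, the subunits of the integrin Mac-1. The counts of the short lists from here on stand beside 13.4% of all tested genes that were listed, 8.28% higher and 5.13% lower, and with so few genes a share moves far with a single one. These lists too were written by hand with earlier results known. ITGAM was at 12336 and 10166 normalised reads with ATRA and 268 and 177 in the controls (50.6-fold), and ITGB2 was higher by 17.1-fold. CEACAM1 had 1.31 and 1.47 reads for each ITGAM read in the ATRA libraries but 0.0543 and 0.0759 in the controls. HAVCR2, LGALS3 and FLNA were not listed. Of 9 other GPI-anchored surface proteins, which share the anchor of CEACAM8, 2 were listed (22.2%). CD24 (9.65-fold) and CD58 (4.65-fold) were higher and the other 7 were not listed, CD177 and FCGR3B among them. Of 10 specific granule proteins, 2 were listed (20.0%). OLFM4, a marker of a subset of neutrophils, had 184 and 214 normalised reads with ATRA and 0 reads in both control libraries, at least 127-fold higher against a floor of 3 control reads over the group. CHI3L1 was 6.85-fold higher. LTF, CAMP, LCN2 and MMP8 were not listed.

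Of 11 transcription factors of myeloid cells or of CEACAM promoters, IRF1 (3.61-fold) and RARA, the retinoic acid receptor (2.23-fold), were listed under the limit (18.2%, near the 13.4% of all tested genes), both higher. CEBPB stood in the table although over the limit, with 7136 and 2934 normalised reads with ATRA and 1371 and 824 in the controls. USF1, USF2, SPI1, CEBPA, CEBPE, RUNX1, RXRA and GFI1 were not listed.

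Some markers of blood cell types were listed along with the CEACAM genes, again beside 13.4% of all tested genes. Of 6 mature neutrophil markers ITGAM and CXCR2 (2.00-fold) were higher with ATRA, and of 6 markers of the early neutrophil lineage only the granulocyte colony-stimulating factor receptor CSF3R (5.51-fold). So were 3 of 6 monocyte and macrophage markers, namely CSF1R (33.2-fold), CLEC7A (29.0-fold) and CD68 (14.4-fold). The eosinophil and basophil markers IL5RA, SIGLEC8 and CPA3 (3 of 6) were lower, with a median log2 ratio of -2.95. Of 6 lymphoid markers CD3E was higher (8.06-fold) and NKG7 lower. None of 6 epithelial markers was listed. More cells with CEACAM transcripts and more transcripts per cell cannot be told apart in these bulk libraries, and the part of the marker changes in the CEACAM values was not tested. The primary granule genes MPO, ELANE, AZU1 and PRTN3, which define promyelocytes, were not listed, so the labelled cell type could not be checked against them.

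The listed genes nearest to each member over the 4 libraries, by Euclidean distance of log2(normalised reads + 0.5), were named as a description. For CEACAM1 they were FGR (distance 1.61), CCL2, a monocyte chemoattractant (1.97), and CYP4F3, which inactivates leukotriene B4 (2.09). For CEACAM3 they were SIGLEC7, an inhibitory receptor for sialic acid (0.445), the pattern receptor CLEC4E (0.917) and SLC26A11 (1.69). CLEC4E had 194 and 83.8 normalised reads with ATRA and 0 and 1.12 in the controls, the same control reads as CEACAM3. For CEACAM8 they were SPATC1 (0.855), RTN1 (1.13) and the hypoxia-inducible factor gene EPAS1 (1.23). Each of them had ATRA library a above library b, as CEACAM8 did, but the distance was computed over these same libraries.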

How the data were processed

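Poly(A) RNA-seq of 2 ATRA and 2 control HL-60 samples was used. Per the study's methods and the submitters' notes, adapters were trimmed (cutadapt), and the authors quantified reads with RSEM 1.2.7 on an hg19 (GRCh37) annotation and compared groups with DESeq2 1.4.5. Their deposited table holds means of counts over size factors (a signal), the ratio of the group means, its log2 value, and the p-value and adjusted p-value of their test. The authors' deposited ratio and log2 columns were not used, and the deposited p-value columns served only to find which genes were listed. All 1645 rows with an adjusted p under 0.01 had consecutive ranks among 12265 tested genes, and 3 further rows (DEFA1B, PRG2 and CEBPB) stood over the limit.

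Among the 73360 digits of the means 0 were zeros and 20.2% were ones, and the printed mean over all libraries was off by over 1% in 429 rows. The means were therefore restored to 2 whole read counts per group, divided by size factors found from the lowest means. This gave 1 solution in 1648 of 1648 rows, and 0 of 3277 means with random decimals were matched. In simulated data for 2 against 2 libraries, the 4 counts came back for 100.0% of 1648 genes. Libraries a and b are not tied to the replicate numbers of the labels.

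The file held group means of selected genes, so no count model was fitted. Ratios of means were given with Clopper-Pearson counting intervals and exact permutation tests (scipy 1.17.1, numpy 2.4.6, pandas 2.3.3). Gene models came from GENCODE v44 lifted to GRCh37, which is not the authors' annotation, and sequences from GRCh37 and RefSeq promoters, aligned with Biopython 1.88. Named genes were the 3 members, other listed CEACAM genes, listed genes of hand-written lists, listed neighbours within 250 kb, and the 3 nearest genes in level. Members and lists were chosen with earlier results of these data known. Alternatives were printed means, other scalings, 1 added to the means, and each library left out. In addition, 1 gene of the signalling list is not reported here and was left out of the counts and the median of that list.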

Additional observations from a re-analysis of the deposited data

How the results depend on the processing

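All 5 CEACAM genes remained higher with ATRA under every alternative run, and the count of family genes in the table and higher stayed at 5, or 4 over 16-fold. With size factors taken as the median of ratios over the listed genes, the log2 ratio was 8.96 for CEACAM1 and 5.97 for CEACAM8. It was 7.17 for CEACAM3, 6.44 for CEACAM4 and 2.48 for CEACAM21, and the median of all listed genes moved by -1.15. Scaling by total reads in the listed genes gave 9.68 for CEACAM1 (median moved by -0.44), and raw reads gave 10.24 (median moved by 0.13). These genes were selected for change, so such scalings are not neutral. For CEACAM3 the log2 ratio was 6.81 with the means as printed and 6.82 with 1 added to each mean. For CEACAM4 it was 6.01 and 6.02 under the same settings, and the control mean of either gene rests on 1 read. With each library left out in turn the log2 ratio ranged from 5.91, a bound, to 8.42 for CEACAM3 and from 10.06 to 10.18 for CEACAM1. It ranged from 6.30 to 7.68 for CEACAM8, from 4.83, also a bound, to 7.76 for CEACAM4 and from 3.23 to 4.23 for CEACAM21. Of the 9 nearest genes, 7 were the same with a pseudocount of 1. No paired analysis was possible because the table holds group means and its libraries carry no replicate numbers. Depth limits the control levels: CEACAM3, CEACAM4 and CEACAM8 had 1, 1 and 3 control reads over both libraries.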

Other observations

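CEACAM8 was one of 31 listed genes whose ATRA libraries lay at least as far apart as its own, and library a was the higher in 29 of them. Among those with at least 100 reads over the ATRA libraries, library a was the higher in 13 of 13, whereas it was the higher in 54.8% of all listed genes (903 genes). This group held genes that were lower with ATRA as well as genes that were higher. PRG2, the eosinophil major basic protein, had 37985 and 10604 normalised reads in ATRA libraries a and b and 213827 and 91701 in the controls. MGLL, a monoacylglycerol lipase, stood at 81.0 and 24.9 against 381 and 342. The defensin gene DEFA1B had 718 and 248 normalised reads with ATRA and 16.5 and 3.35 in the controls, though neither it nor PRG2 passed the authors' limit, and DEFA1B has near-identical copies. The adhesion molecule CADM1 had 766 and 268 with ATRA and 4.86 and 0 in the controls. No cause of the difference between the ATRA libraries was tested.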
